A study of Mus musculus with 8 samples.

Results

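Granins and the enzymes that turn prohormones into active peptides were followed in somatostatin (SST) neurons of the tuberal nucleus (TN), a region of the lateral hypothalamus. The members were listed by gene symbol, by a rule that uses no measured value, with earlier results of these data known, and are 10 of the 35968 genes in the data: the granins *Chga*, *Chgb*, *Scg2*, *Scg3* and *Vgf*, the convertases *Pcsk1* and *Pcsk2* with the PCSK2 chaperone *Scg5*, the carboxypeptidase *Cpe* and the amidating enzyme *Pam*. Neurons were labeled in heterozygous *Sst-Cre* mice (Sst tm2.1(cre)Zjh/J / +, on C57BL/6J), in which Cre is made from the *Sst* locus, by injecting AAV2-flex-tdTomato, a virus whose red reporter needs Cre, into the TN. All 8 mice, injected as adults per the methods, carried the same allele and virus and are labeled only by sex, with 4 females and 4 males, gonadally intact as far as the methods state. Age beyond adult and the estrous stage of these females are not given in the sources used here. After papain dissociation, live nucleated cells with high red fluorescence were sorted and their total RNA was sequenced, giving 1 library for each mouse. Libraries of unsorted cells were not analysed here. The reporter needs the virus and Cre together, so only cells holding Cre after the adult injection could be marked. Some of these may have lowered *Sst* by the time of the sort. In bulk RNA, fewer cells of a type and less RNA per cell cannot be told apart.

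Neuropeptides are made as long precursors that enter dense core vesicles together with granins, acidic proteins that aggregate in the trans-Golgi and help load the vesicle. Inside, PCSK1 and PCSK2 cut the precursor after paired basic residues, CPE removes the basic residues left at the new end, and PAM converts a terminal glycine to an amide. SST itself is cut from its precursor by such enzymes and is stored and released from these vesicles.

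In units of 1000000, total counts lay between 7.83 and 17.6 per mouse, and a count of 3 corresponded to 0.148 to 0.458 counts-per-million (CPM). Such limits cover counting error only. Each member held between 306 and 13427 counts in a mouse, and all 10 passed the filter on low counts. *Sst* ranked 45th of all genes by mean TPM (transcripts-per-million, a level per transcript length), at 1188 ± 324 (SD, n = 8). *Lars2*, the most abundant gene, held from 9.34% (female 3) to 34.4% (female 2) of the counts of a mouse. TPM were not scaled for this, and its part in TPM differences between mice was not tested. The 8 neuron markers summed to between 1896 and 2631 TPM in females and 1492 and 1935 TPM in males, and all 8 had higher CPM in females in the edgeR fit (median log2 difference 0.15). In 3 of the 8 the sexes did not overlap, with females at 1.60-fold the male level for *Rbfox3*, 1.46-fold for *Syt1* and 1.39-fold for *Snap25* (edgeR adjusted p = 0.0655, 0.0798 and 0.0913), against 1.53-fold for *Pcsk2*. Markers of other cells were also present: the 5 microglia markers summed to 180 to 1048 TPM in females and 390 to 1889 TPM in males, the 5 astrocyte markers to 70.5 to 241 and 196 to 409 TPM, the 5 oligodendrocyte markers to 315 to 1393 and 488 to 1261 TPM, and the 4 endothelial markers to 15.0 to 47.5 and 14.9 to 46.9 TPM. All 5 genes of each of the first 3 lists and 3 of the 4 endothelial genes were lower in females, and none of these markers passed an adjusted p of 0.05 in edgeR. The 8 immediate early genes, which rise with neuronal activity and with handling of tissue, summed to 1670 to 2113 TPM in females and 2026 to 2659 TPM in males, with 6 of 8 lower in females and none past an adjusted p of 0.05. At an unadjusted p under 0.05, 7 of the 8 differed in edgeR, 6 lower in females and 1 higher (*Arc*), against 20.5% of all genes, and the sexes did not overlap for *Fosb*, lower in females, and *Arc*. Their part in the results was not tested. The pituitary also makes granins. Of its 6 hormone genes, *Gh*, *Prl* and *Fshb* were at 0 counts in every mouse, *Lhb* had at most 1 count, *Tshb* had 18 to 44 counts, and *Cga* had 46 counts in male 3, 11 in male 2 and at most 1 elsewhere.

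By TPM, *Scg2* was the most abundant member and *Pcsk1* the least. Values by mouse are listed here in the order of the mouse numbers, 1 to 4 in each sex. The 10 genes summed to 2551, 2794, 2958 and 2740 TPM in females and to 3089, 2535, 2908 and 2395 TPM in males, which is 0.240% to 0.309% of all TPM. Over the 8 mice, mean TPM was 656 ± 78.1 for *Scg2*, 371 ± 63.8 for *Chgb*, 261 ± 47.7 for *Chga*, 232 ± 28.9 for *Scg3* and 103 ± 16.7 for *Vgf* (SD, n = 8). *Scg2*, which encodes secretogranin II, thus lay 103rd of all genes, *Chgb* 277th, *Chga* 481st, *Scg3* 580th and *Vgf* 1573rd. Among the enzymes, *Cpe* had 473 ± 32.8 TPM (rank 184), *Pam* 359 ± 61.8 (rank 294), *Pcsk2* 66.0 ± 20.1 (rank 2660) and *Pcsk1* 29.4 ± 10.3 (rank 5647). *Scg5*, the chaperone that brings PCSK2 to activity, had 196 ± 24.8 TPM (rank 722). Each gene in this order lay above the next in all 8 mice, except that *Chgb* exceeded *Pam* in 6, *Pam* exceeded *Chga* in 7 and *Chga* exceeded *Scg3* in 5, so these neighbours were not separated beyond their spread.

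**Figure D1:**
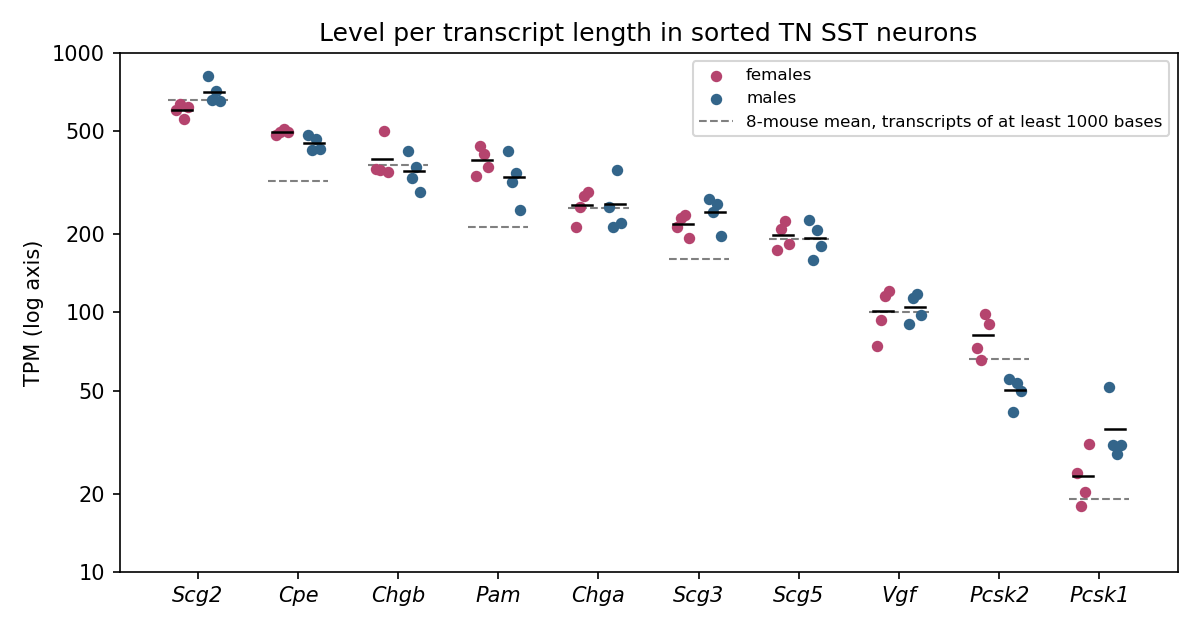
Level per transcript length of each gene in sorted TN SST neurons. The vertical axis is TPM on a log scale, points are single mice (4 females, 4 males), short black lines are the means of each sex and dashed grey lines are the means over 8 mice from transcripts of at least 1000 bases. *Scg2* lies highest at 656 TPM and *Pcsk1* lowest at 29.4 TPM.

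Part of this order rested on short transcripts. *Cpe-202*, a processed transcript of 590 bases, held 9.15% of the *Cpe* counts but 32.0% of its TPM. *Pam-212*, of 657 bases, held 4.40% of the *Pam* counts and 23.0% of its TPM. For *Pcsk1* the short *Pcsk1-203*, of 466 bases, had 154 counts over all 8 mice, or 3.40% of the gene, and yet made up 0% to 49.2% of its TPM in single mice. Reads on a short transcript therefore weighed more in the TPM of these genes than in their counts. These reads were few only for *Pcsk1-203*, with 3248 counts on *Cpe-202* and 2038 on *Pam-212* over all 8 mice. From transcripts of at least 1000 bases, a limit chosen after the values were seen, the means were 656 ± 78.1 TPM for *Scg2*, 371 ± 63.8 for *Chgb*, 321 ± 28.6 for *Cpe*, 252 ± 47.3 for *Chga* and 213 ± 26.9 for *Pam*, followed by 192 ± 24.1 for *Scg5*, 161 ± 21.1 for *Scg3*, 101 ± 16.2 for *Vgf*, 66.0 ± 20.1 for *Pcsk2* and 19.0 ± 4.53 for *Pcsk1* (SD, n = 8). *Cpe*, *Pam* and *Scg3* moved down the order, while *Scg2* stayed highest and *Pcsk2* and *Pcsk1* lowest. *Scg5* now exceeded *Scg3* in 7 of 8 mice, the reverse of the order by all transcripts.

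Most members were read from 1 dominant transcript. *Pcsk2-201* held 97.4% of the *Pcsk2* counts, *Scg5-201* 99.1%, *Chga-201* 98.9% and *Pcsk1-201* 92.5%, and *Chgb* has a single annotated transcript. *Scg2*, *Scg3* and *Vgf* were each divided between a pair of coding transcripts, with 64.2% and 35.8% for *Scg2-202* and *Scg2-201*, 57.1% and 34.4% for *Scg3-202* and *Scg3-201*, and 64.2% and 32.3% for *Vgf-204* and *Vgf-201*. In *Pam*, *Pam-202* held 9.23%, 7.78%, 14.6% and 9.77% of the counts in females and 19.0%, 19.2%, 15.8% and 13.6% in males. Its share was below every male in 3 females, and female 3 lay within the males. *Pam-201* held 82.2% ± 2.79 in females and 76.2% ± 3.73 in males (SD, n = 4 each), and these shares overlapped too. In none of the 11 transcripts with 5% to 95% of their gene's counts were the sexes separate.

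**Figure D2:**
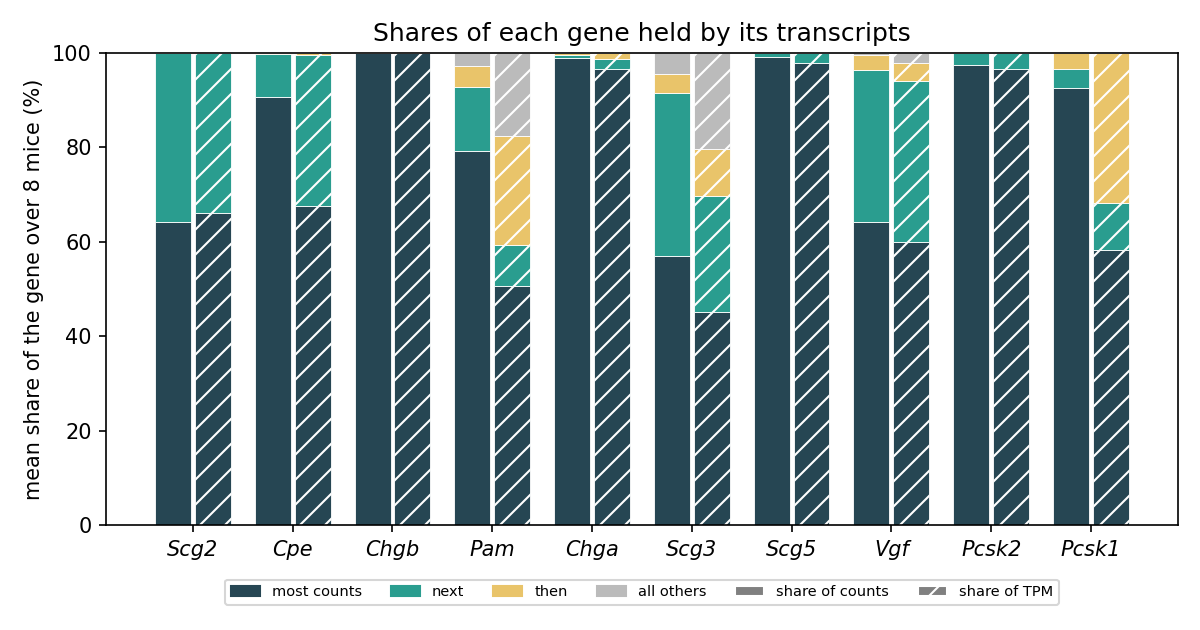
Mean share of each gene held by its transcripts over 8 mice, in percent. Solid bars are shares of counts and hatched bars shares of TPM, with transcripts stacked from the one with most counts upward; the 3rd *Pcsk1* transcript grows from 3.40% of counts to 31.8% of TPM.

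The promoters of 8 members were found in RefSeq (GRCm38.p6), from 250 bases before to 50 bases after the start, and those of *Pcsk1*, *Scg2*, *Chgb* and *Pcsk2* are printed because the first 3 share a cyclic AMP response element (CRE) and because *Pcsk1*, *Scg2* and *Pcsk2* are the members whose sexes were separate. The palindrome TGACGTCA, the full CRE, was searched on both strands and occurred in these 3 promoters, starting 78, 68 and 72 bases before the start, against 1.79% of 32851 mouse promoters. The shorter TGACG, which the palindrome contains on either strand, occurred in 7 of the 8 members and in 20.8% of all promoters; in *Pcsk2* it lay alone on the reverse strand, 34 bases before the start. *Pam* had neither. Capitals mark the full CRE and TGACG or its reverse complement CGTCA, at chr13:75089607-75089906 (+) for *Pcsk1*, chr1:79439977-79440276 (-) for *Scg2*, chr2:132781392-132781691 (+) for *Chgb* and chr2:143545883-143546182 (+) for *Pcsk2*.
Pcsk1 promoter: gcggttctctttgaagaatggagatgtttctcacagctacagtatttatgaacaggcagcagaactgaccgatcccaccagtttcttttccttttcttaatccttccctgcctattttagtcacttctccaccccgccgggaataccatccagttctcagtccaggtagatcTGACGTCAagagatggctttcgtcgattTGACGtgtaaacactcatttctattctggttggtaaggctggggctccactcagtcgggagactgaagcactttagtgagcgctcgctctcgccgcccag
Scg2 promoter: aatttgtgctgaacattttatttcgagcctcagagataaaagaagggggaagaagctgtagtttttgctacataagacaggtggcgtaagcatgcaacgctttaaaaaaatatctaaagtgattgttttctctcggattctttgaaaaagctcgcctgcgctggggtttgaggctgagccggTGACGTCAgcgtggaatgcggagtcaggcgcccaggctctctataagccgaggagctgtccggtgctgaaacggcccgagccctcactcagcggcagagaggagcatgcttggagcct
Chgb promoter: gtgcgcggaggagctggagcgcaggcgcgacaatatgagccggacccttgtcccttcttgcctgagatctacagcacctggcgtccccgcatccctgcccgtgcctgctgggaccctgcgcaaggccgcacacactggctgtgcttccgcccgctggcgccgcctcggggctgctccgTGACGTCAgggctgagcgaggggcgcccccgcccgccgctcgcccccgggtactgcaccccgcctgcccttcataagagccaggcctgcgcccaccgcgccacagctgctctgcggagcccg
Pcsk2 promoter: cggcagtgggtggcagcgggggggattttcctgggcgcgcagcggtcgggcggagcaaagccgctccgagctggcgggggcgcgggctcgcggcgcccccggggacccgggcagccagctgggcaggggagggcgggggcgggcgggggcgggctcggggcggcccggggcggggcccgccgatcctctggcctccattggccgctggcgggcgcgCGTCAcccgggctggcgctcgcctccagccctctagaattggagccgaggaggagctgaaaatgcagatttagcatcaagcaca
A match gives only the letters found in this window and says nothing of whether a factor bound there. *Chga* had TGACG 44 bases before the start and the TATA box letters TATAAA, found in 13.6% of promoters, 5 bases after the RefSeq start. CCAAT, in 37.4% of promoters, occurred in *Pcsk2* and *Scg3*, and TTCAGCACC, the left part of the neuron-restrictive RE1 element, found in 0.371% of promoters, lay on the reverse strand of *Scg2*, 7 bases before the start.

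The comparison of females with males asked whether this secretory set differed between the sexes. The convertases moved apart the most: *Pcsk2* was higher in every female and *Pcsk1* higher in every male, while *Cpe*, *Pam*, *Chga*, *Chgb*, *Scg5* and *Vgf* overlapped widely. In the edgeR quasi-likelihood test no member passed an adjusted p of 0.05, where 0.158% of the 15194 genes tested did, and 2 members, *Pcsk2* and *Pcsk1*, passed in DESeq2's Wald test, where 6.92% did. At an unadjusted p under 0.05, 4 of 10 members passed in edgeR (*Pcsk2*, *Pcsk1*, *Scg2* and *Scg3*) against 20.5% of all genes. The sexes did not overlap in 3 of 10 members against 10.4% of all genes. Of the members, 4 had higher and 6 lower CPM in females, with a median log2 difference of -0.07 against -0.00434 over all genes tested.

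**Figure D3:**
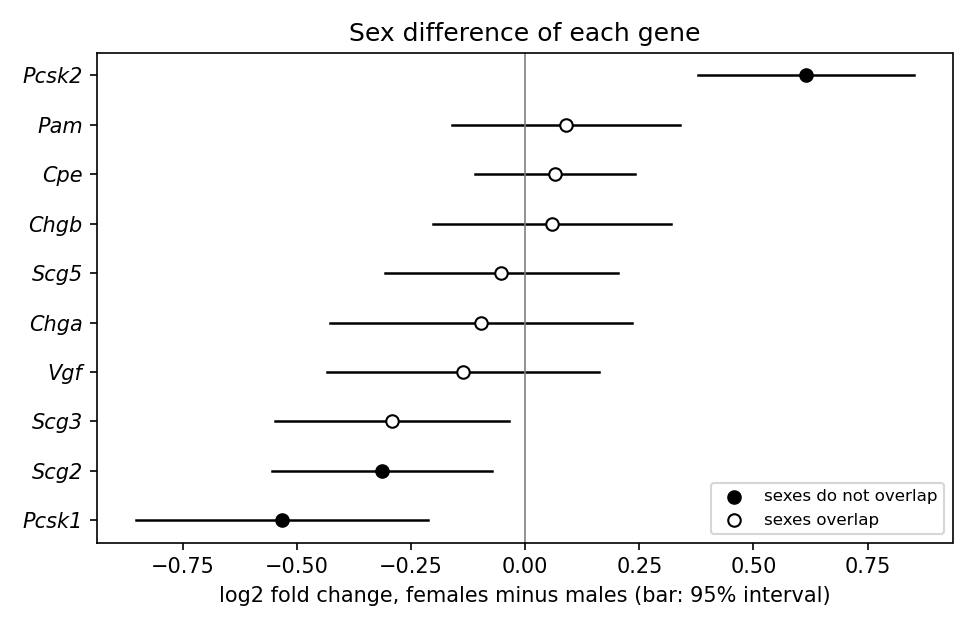
Female minus male log2 fold change of each gene from edgeR. Points are estimates, bars are 95% confidence intervals and filled points mark genes whose 4 females and 4 males did not overlap; *Pcsk2* lies at 0.61 and *Pcsk1* at -0.53.

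Among the granins, *Scg2* (ENSMUSG00000050711.7, mm10 chr1:79434669-79440120) had 787, 873, 632 and 774 CPM in females and 1073, 922, 926 and 891 CPM in males. Every male lay above every female, with male 4 close to female 2. Its female minus male log2 fold change was -0.31 (SE 0.107, 95% interval -0.55 to -0.07), with an edgeR adjusted p of 0.171 and a DESeq2 adjusted p of 0.0520. *Scg3* (ENSMUSG00000032181.7, chr9:75643189-75684056), a granin that binds CHGA and tethers it to the vesicle membrane, had 207, 223, 180 and 163 CPM in females and 266, 235, 239 and 206 CPM in males. Males were higher on average, but male 4 lay within the females, and the log2 fold change was -0.29 (SE 0.114, 95% interval -0.55 to -0.04, edgeR adjusted p = 0.207).

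*Chga* (ENSMUSG00000021194.6, chr12:102554969-102565028), the founding granin and source of the peptides vasostatin and catestatin, had 211, 262, 241 and 273 CPM in females and 254, 227, 349 and 226 CPM in males. Male 3 alone stood high and the sexes overlapped (log2 fold change -0.10, 95% interval -0.43 to 0.23, edgeR adjusted p = 0.744). Without male 3 the log2 fold change was 0.07. *Chgb* (ENSMUSG00000027350.8, chr2:132781278-132795079) had 541, 573, 663 and 505 CPM in females and 642, 533, 552 and 463 CPM in males. Again the ranges overlapped, with the highest value in female 3 and the lowest in male 4 (log2 fold change 0.06, 95% interval -0.20 to 0.32, edgeR adjusted p = 0.807). *Vgf* (ENSMUSG00000037428.14, chr5:137026392-137033351), whose product is cut into peptides such as TLQP-21 that act on feeding and energy balance, had 109, 150, 150 and 167 CPM in females and 137, 166, 175 and 153 CPM in males. Female 1 was the low mouse, and the other 7 lay close together (log2 fold change -0.14, 95% interval -0.43 to 0.16, edgeR adjusted p = 0.588). The intervals of these 3 genes allow differences of up to 0.43 on the log2 scale in one direction, so a p that missed the threshold does not show that the sexes were alike.

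*Pcsk2* (ENSMUSG00000027419.9, chr2:143546156-143816285), the convertase that completes the cutting of many neuropeptides, had 194, 183, 229 and 231 CPM in females and 149, 118, 142 and 139 CPM in males. The lowest female lay well above the highest male. Females had 1.53-fold the male level (log2 fold change 0.61, SE 0.105, 95% interval 0.38 to 0.85), with an unadjusted edgeR p of 0.000202, an edgeR adjusted p of 0.0655 and a DESeq2 adjusted p of 5.21e-05. The edgeR call depended on which mice were included. Its adjusted p was 0.0370 without female 1 and 0.0441 without male 1, and 0.110 to 0.207 without any other mouse. Without female 1 or male 1, the *Pcsk2* log2 fold change was 0.65 and 0.66. In these settings the genes called over all genes rose from 24 to 415 and 411. *Pcsk1* (ENSMUSG00000021587.5, chr13:75089826-75134861), which makes the early cuts in precursors such as POMC, had 39.2, 46.7, 39.7 and 40.6 CPM in females and 76.7, 58.6, 56.8 and 48.0 CPM in males. All males were higher, and male 4 exceeded female 2 by little. Males had 1.45-fold the female level (log2 fold change -0.53, SE 0.142, 95% interval -0.85 to -0.21, edgeR adjusted p = 0.113, DESeq2 adjusted p = 0.0166).

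Neuron markers had higher and microglia, astrocyte and oligodendrocyte markers lower CPM in females, as given above. With the mean of the neuron markers as a covariate, the female minus male log2 fold change was 0.33 for *Pcsk2* (SE 0.148, edgeR adjusted p = 0.963). For *Pcsk1* it was -0.87 (SE 0.198, edgeR adjusted p = 0.864), and 1 of the 10 members, *Pcsk2*, remained higher in females. At an unadjusted p under 0.05, 3 of the 10 members passed in this edgeR fit, against 719 of 15194 genes. The part of cell makeup in the differences of single genes was otherwise not tested.

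A ratio of a pair of genes in the same library does not depend on how libraries were scaled. The ratio of *Pcsk2* to *Pcsk1* counts was 4.96, 3.92, 5.77 and 5.71 in females and 1.94, 2.01, 2.50 and 2.90 in males. All females lay above all males, and the ratio was 2.18-fold higher in females (log2 difference 1.12). The 2-sided exact permutation test gave p = 0.0286, the smallest that 4 against 4 can give, and 0.0714 adjusted over the 5 ratios. Since *Pcsk2* CPM was higher in every female and *Pcsk1* CPM in every male, this ratio had to separate the sexes. Its p was therefore fixed by the separation of the single genes and adds no evidence to it. By TPM of transcripts of at least 1000 bases, the ratio was 5.62, 3.67, 5.77 and 5.72 in females and 1.99, 2.00, 2.43 and 2.76 in males, again without overlap.

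*Scg5* (ENSMUSG00000023236.7, chr2:113776362-113829121), which encodes the 7B2 protein that escorts PCSK2 and inhibits it until it is cleaved, had 104, 134, 117 and 107 CPM in females and 138, 101, 124 and 115 CPM in males. The sexes overlapped from end to end (log2 fold change -0.05, 95% interval -0.31 to 0.20, edgeR unadjusted p = 0.659). The ratio of *Scg5* to *Pcsk2* counts was 0.532, 0.730, 0.509 and 0.463 in females and 0.922, 0.862, 0.874 and 0.824 in males. Every male had more *Scg5* per *Pcsk2* than every female, the females having 0.632-fold the male ratio (log2 difference -0.66, 2-sided exact permutation p = 0.0286, adjusted p = 0.0714). This ratio shares *Pcsk2* with the one before and is not independent of it.

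**Figure D4:**
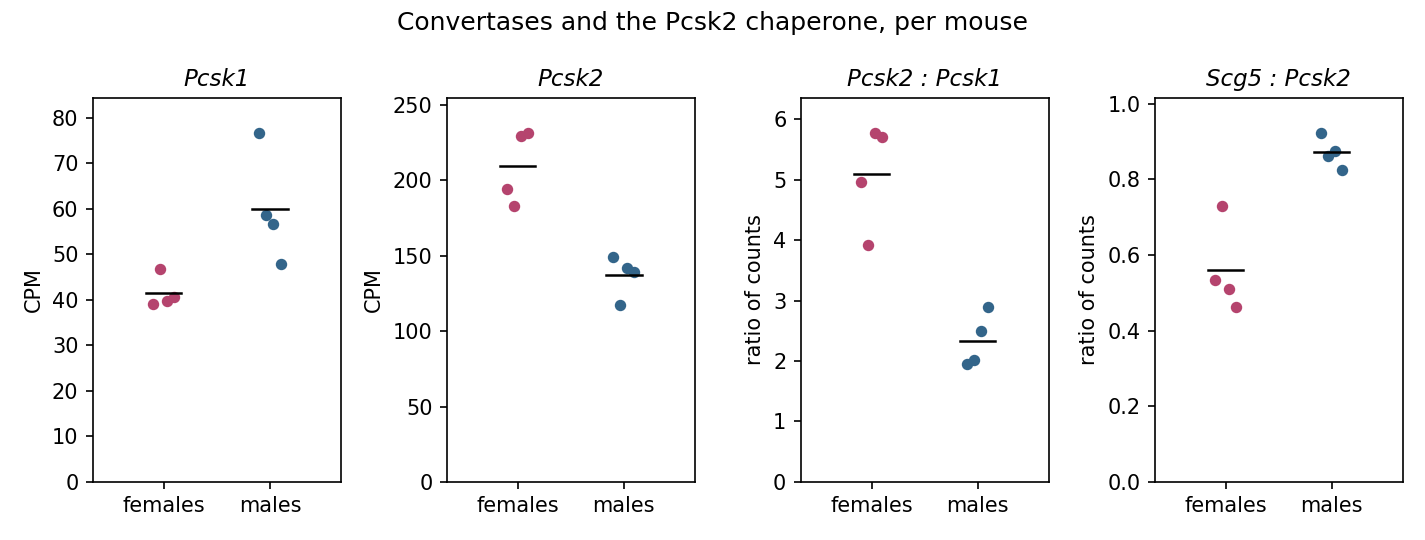
*Pcsk1* and *Pcsk2* CPM and the *Pcsk2* to *Pcsk1* and *Scg5* to *Pcsk2* ratios of counts, on axes that start at 0. Points are single mice, lines are the means of 4 females and of 4 males, and in none of the 4 panels do the sexes overlap.

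The other 3 ratios did not separate the sexes. *Pcsk1n*, the gene for proSAAS, a granin-like inhibitor of PCSK1, stood to *Pcsk1* at 22.6, 18.9, 18.3 and 16.1 in females and 14.0, 12.7, 15.6 and 16.8 in males, with male 4 among the females (log2 difference 0.36, exact permutation p = 0.0571, adjusted p = 0.0952). *Scg3* to *Chga* differed by -0.22 and *Pcsk2* to *Sst* by 0.32 on the log2 scale (exact permutation p = 0.343 and adjusted p = 0.343 for each). *Sst* itself had 396, 464, 526 and 292 CPM in females and 368, 369, 303 and 301 CPM in males. Its highest and lowest values were both in females (log2 fold change 0.32, SE 0.167, edgeR adjusted p = 0.302).

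*Cpe* (ENSMUSG00000037852.8, chr8:64592542-64693054), which trims the basic residues, was the steadiest member, with 407, 461, 386 and 398 CPM in females and 422, 374, 405 and 378 CPM in males. Its coefficient of variation over the 8 mice was 6.94%, against 25.3% for *Pcsk1* and 24.8% for *Pcsk2*, and its log2 fold change was 0.07 (SE 0.0782, 95% interval -0.11 to 0.24, edgeR adjusted p = 0.667). *Pam* (ENSMUSG00000026335.16, chr1:97795114-98095646), the only enzyme known to amidate peptides, had 535, 610, 530 and 494 CPM in females and 603, 495, 513 and 427 CPM in males. Female 2 and male 1 were both high and male 4 was low, and the sexes overlapped (log2 fold change 0.09, SE 0.111, 95% interval -0.16 to 0.34, edgeR adjusted p = 0.680).

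**Figure D5:**
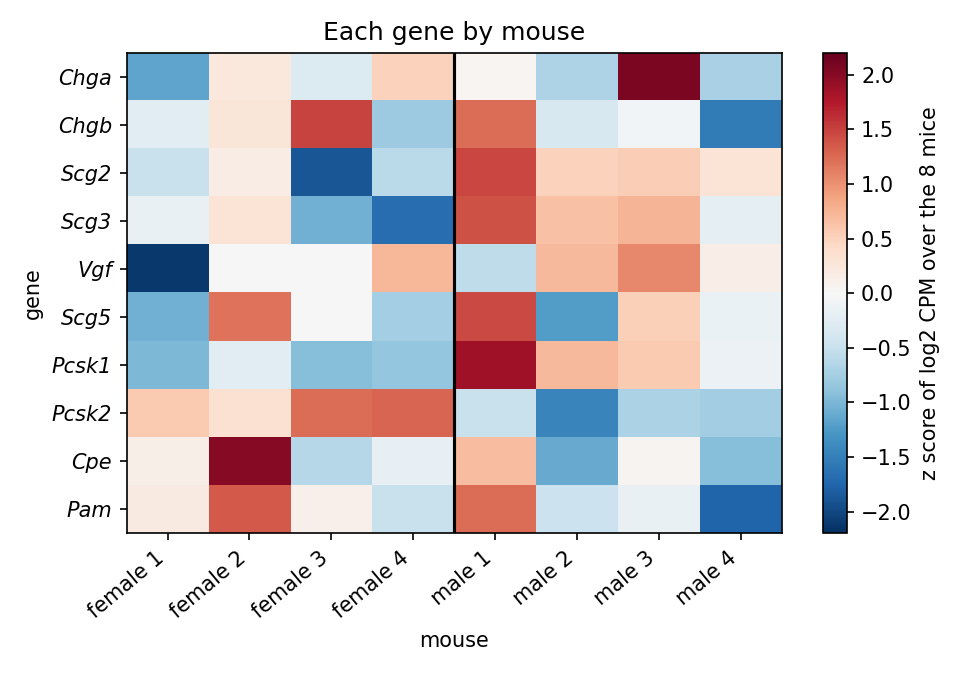
Each gene by mouse, as the z score of log2 CPM over the 8 mice, with genes in rows by role and females left of the black line. *Scg2*, *Scg3* and *Pcsk1* are all highest in male 1, *Cpe* and *Pam* in female 2, and *Pcsk2* is above its mean in all 4 females.

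Over mice, no pair of members passed adjustment in log2 CPM. Of 45 pairs, 34 had a positive Pearson correlation of log2 CPM (median r 0.24), and 9 had an exact permutation p under 0.05, with none past adjustment by Pearson or Spearman correlation. In log2 TPM, none passed by Pearson correlation, but *Pcsk2* with *Cpe* passed by Spearman correlation (rho = 0.976, exact p = 0.000397, adjusted p = 0.0179; Pearson r = 0.861, exact p = 0.00625, adjusted p = 0.161; 0.846 without the 2 mice farthest from the median of *Pcsk2* and 0.616 about the means of the sexes). In log2 CPM the same pair had rho = 0.357 and r = 0.240. The highest pooled r in log2 CPM were those of *Scg2* with *Pcsk1* (Pearson r = 0.874, exact p = 0.00422, adjusted p = 0.124; Spearman rho = 0.905, exact p = 0.00456; n = 8 mice), *Scg3* with *Pcsk1* (r = 0.862) and *Scg2* with *Scg3* (r = 0.838). Without the 2 mice farthest from the median of *Scg2*, the first was 0.945. These 3 genes all had lower means in females, and about the means of the sexes their r were 0.686, 0.715 and 0.669. About those means the highest r were 0.935 for *Pcsk1* with *Pam* and 0.886 for *Scg3* with *Pam*, whose pooled r were 0.272 and 0.396. *Cpe* and *Pam*, which act one after the other, had r = 0.818 (exact p = 0.0146, adjusted p = 0.164; Spearman rho = 0.833, exact p = 0.0154), 0.846 without the 2 mice farthest from the median of *Cpe* and 0.797 about the means of the sexes. *Pcsk1* and *Pcsk2* had r = -0.736 over all mice and 0.00743 about the means of the sexes. The genes most like the mean z score of the members over the 8 mice were *Morf4l2* (r = 0.963), *Abca8b* (0.949), *Acyp2* (0.942), *St8sia2* (0.941) and *Slc7a1* (0.938), picked as the highest of all genes and given as likeness with no test.

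The rest of the secretory pathway was read from 7 lists. The 16 dense core vesicle genes had 13 higher and 3 lower in females (median log2 difference 0.10), where 49.4% of all genes tested were higher. None passed an adjusted p of 0.05 in edgeR, and 2 passed unadjusted, against 20.5% of all genes. The sexes did not overlap for 1 of the 16, *Rab27b*, against 10.4% of all genes. *Rab27b* was higher in every female (log2 fold change 0.29, edgeR adjusted p = 0.179). *Rab3a*, a vesicle GTPase, lay at 990 TPM (log2 fold change 0.18, edgeR adjusted p = 0.264), and *Baiap3*, which acts in dense core vesicle traffic, at 489 TPM (0.24, edgeR adjusted p = 0.254). That direction was shared by the 8 neuron markers above. Of the 7 other proprotein convertases, 4 were higher and 3 lower, none passing. The sexes did not overlap for 1 of the 7, *Pcsk6*, against 10.4% of all genes. *Pcsk6* was lower in every female (log2 fold change -0.56, edgeR adjusted p = 0.130). *Mbtps1*, the site-1 protease, had 48.4 TPM and *Furin*, which cuts proproteins in the constitutive pathway, 22.9 TPM, with log2 fold changes of -0.03 and -0.45 (edgeR adjusted p = 0.852 and 0.401).

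Among 9 other trimming and modifying enzymes, 8 had enough counts to test, 3 higher and 5 lower in females, none passing. *Prepl*, a serine hydrolase, lay at 544 TPM (log2 fold change 0.24, edgeR adjusted p = 0.218) and *Ctsl*, a cathepsin that also cuts prohormones and is abundant in phagocytes, at 326 TPM (-0.81, edgeR adjusted p = 0.116). All 6 amidation partners, which interact with PAM or supply its copper and electrons, were tested, 3 higher and 3 lower in females, none passing. *Kalrn*, a PAM-binding exchange factor, had 208, 233, 329 and 240 CPM in females and 218, 147, 182 and 162 CPM in males, with male 1 among the females (log2 fold change 0.51, edgeR adjusted p = 0.149). *Uhmk1*, a kinase that binds PAM, lay higher in every female, at 292 to 313 CPM against 237 to 280 CPM (log2 fold change 0.25, edgeR adjusted p = 0.130). *Atp7a*, another of the 6, lay lower in every female, at 14.4 to 33.4 CPM against 43.2 to 51.4 CPM (log2 fold change -0.77, edgeR adjusted p = 0.137). The granin-like *Gnas* locus, whose counts also hold the G protein subunit, had 2552 TPM and *Pcsk1n* 701 TPM, with log2 fold changes of 0.07 and -0.16 (edgeR adjusted p = 0.765 and 0.547).

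Of 30 neuropeptide precursors, the substrates of these enzymes, 19 had enough counts to test. In females 7 were higher and 12 lower (median log2 difference -0.25), and 1 passed. The sexes did not overlap for 4 of these 19, *Gal*, *Pomc*, *Pdyn* and *Tac1*, against 10.4% of all genes. The log2 fold change was -1.11 for *Pomc*, -0.88 for *Pdyn* and 1.05 for *Tac1* (edgeR adjusted p = 0.146, 0.0570 and 0.0798). *Gal*, the precursor of galanin, had 13.1, 19.6, 14.0 and 20.4 CPM in females and 40.3, 44.6, 34.4 and 33.5 CPM in males. The sexes were far apart, with a log2 fold change of -1.19 (SE 0.175, 95% interval -1.59 to -0.80, edgeR adjusted p = 0.0448). Of 10 extracellular peptidases, which end peptide signals, 8 were tested and none passed. *Dpp10*, a dipeptidyl peptidase relative without enzyme activity, had 168, 175, 208 and 172 CPM in females and 151, 138, 147 and 132 CPM in males, without overlap (log2 fold change 0.35, edgeR adjusted p = 0.100), and *Ece2*, an endothelin-converting enzyme, had 58.8 TPM (log2 fold change 0.12, edgeR adjusted p = 0.610).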

How the data were processed

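Flow-sorted tdTomato-positive cells of 4 female and 4 male mice were sequenced from total RNA (SMARTer Stranded Total RNA kit), with 1 library per mouse. Per the submitters' processing notes, the authors assigned reads to mm10 transcripts with kallisto 0.46.2 and deposited estimated counts, not normalized, and TPM, a length-scaled score, in 2 blocks of the same transcripts per mouse, whose meaning is not given in the sources used here; they list DESeq2 2.11.40.6 for testing. Blocks were summed for the counts and averaged for the TPM. Of 118489 transcripts, 116728 were joined to 35968 genes of GENCODE release M21. Estimated counts were rounded and tested in R 4.3.3 with edgeR 4.0.16 (limma 3.58.1; TMM, whose factors lay between 0.841 and 1.16, default filter by sex, quasi-likelihood test, Benjamini-Hochberg over 15194 genes, sex as the only term), with DESeq2 1.42.0 as the alternative. CPM are TMM-scaled and log2 CPM used a prior count of 2. Joins, 2-sided exact permutation tests and plots used Python 3.11.15, numpy 2.4.6, pandas 2.3.3, scipy 1.17.1 and matplotlib 3.10.9. Fits were tested on simulated data. With reads not collapsed to molecules, precision from depth covers counting error only. RefSeq promoters are of GRCm38.p6; those of *Vgf* and *Cpe* were not used here.

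The members and lists were chosen with earlier results of these data known. Named were all members, *Sst*, of each list the genes past an adjusted p of 0.05 or else the 2 with the highest mean TPM, and the 5 genes most like the members. *Atp7a*, *Pcsk6*, *Rab27b*, *Pomc*, *Pdyn* and *Tac1* were added after the data were seen, because their sexes did not overlap. Alternatives were DESeq2, another normalization (RLE), no filter, a filter asking 10 counts or more in 4 mice or more, a transcript length offset, coding transcripts alone, a replicate block, leaving out *Lars2* (the most abundant gene), the neuron marker mean as a covariate, each block alone, deposited TPM for ratios and pairs, and leaving out each mouse in turn. Transcripts of at least 1000 bases alone were added after the data were seen. Whether each library came from 1 animal alone is taken from the sample labels' numbering, so the p-values measure the spread between these libraries.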

Additional observations from a re-analysis of the deposited data

How the results depend on the processing

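Members past an adjusted p of 0.05 numbered 0 in edgeR under each normalization, filter, length and block setting, 2 in DESeq2 (*Pcsk1* and *Pcsk2*), and between 0 and 1 when single mice were left out. Higher in females were 4 of 10 members, but 1 with the neuron marker mean as a covariate, and between 3 and 5 when single mice were left out. None of the 5 ratios passed adjustment. With 4 mice against 4 an exact p cannot fall below 0.0286. With 2 ratios separated, the adjusted p could therefore not fall below 0.0714. In the second block alone 3 ratios separated and passed (*Pcsk2* to *Pcsk1*, *Scg5* to *Pcsk2* and *Pcsk1n* to *Pcsk1*, exact permutation, adjusted p = 0.0476 each). Failure and pass thus followed from how many of the 5 ratios separated, and neither adds evidence on a single ratio. With 3 mice against 4 an exact p cannot fall below 0.0571, so none could pass. Over 19 alternatives the log2 fold change of *Pcsk2* ran from 0.33 to 0.67, that of *Pcsk1* from -0.87 to -0.39 and that of *Scg2* from -0.44 to -0.23, none changing sign, while *Chgb* changed sign in 3 and *Chga*, *Scg5*, *Cpe* and *Pam* in 1 each. Over all genes, 24 passed in edgeR, 1052 in DESeq2, 415 without female 1, 411 without male 1, 13 with the length offset, 8 to 13 without any other mouse, 3 with the neuron covariate and 1 with the replicate block. Mice with the same number in the labels did not deviate together (correlations of -0.396, -0.156, 0.0356 and 0.0719). These values cannot show whether same-numbered mice were handled together, which the labels do not state. With the replicate block, *Pcsk2* had a log2 fold change of 0.61 (edgeR adjusted p = 0.152) and 0 members passed. The *Pcsk2* to *Pcsk1* ratio differed by 1.12 (exact sign-flip permutation p = 0.125, the smallest it can give). In log2 TPM, 0 of 45 pairs passed by Pearson correlation and 1 by Spearman correlation, *Pcsk2* with *Cpe* (exact permutation, adjusted p = 0.0179), against 0 by either in log2 CPM. The causes of these changes were not tested. From transcripts of at least 1000 bases, mean TPM was 321 for *Cpe*, 213 for *Pam*, 161 for *Scg3* and 19.0 for *Pcsk1*. Between the 2 blocks of a mouse the median log2 difference of a member was 0.0172 (*Cpe*) to 0.151 (*Vgf*), reaching 0.312 for *Pcsk1* in female 4, and 306 counts for the least read member limit what a difference in *Pcsk1* can show.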
